A study of Homo sapiens with 3 samples.

Results

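The human mitochondrial genome is a small circular DNA that carries 37 genes, and the counts of all 37 were described here in H9, an established human embryonic stem cell line. Members were every gene that GENCODE release 44 places on the mitochondrial chromosome (chrM), and all of them had a row among the 58051 genes of the deposited tables. They comprise 13 protein-coding genes, 2 ribosomal RNA (rRNA) genes and 22 transfer RNA (tRNA) genes. The 3 libraries are replicates of a single group of wild-type, untreated cells grown on a vitronectin coating, and each was made from total RNA after depletion of rRNA. There is 1 condition, so no difference between conditions was tested, and errors are the SD over the replicates. The labels do not say whether these came from separate cultures, and their spread may be technical.

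Replicates 1, 2 and 3 held 10390984, 12024802 and 8655155 counts on genes. Levels are given as CPM, the count scaled to the library total, and, where genes are compared with each other, as CPM per kb of annotated gene length. The pluripotency genes POU5F1, NANOG, SOX2 and LIN28A were at 275 to 2576 TPM, a scaled count per length of exons in which each library has the same sum. Of 10 markers of other cell types, 4 (ALB, GATA1, INS and KRT5) had no count in any replicate. All 10 summed to 13.97 to 16.4 TPM, nearly all of it from the collagen gene COL1A1 at 14.6 TPM.

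Mitochondrial genes are read from both strands of the circle into long transcripts that span many genes. The tRNA genes lie between most of the others, and their excision by the endonucleases RNase P and ELAC2 releases the mRNAs and rRNAs. The 13 mRNAs encode subunits of complexes I, III and IV and of the ATP synthase, the enzymes of oxidative phosphorylation, whose other subunits come from the nuclear genome. In the annotation, the minus strand of chrM carries MT-ND6 and 8 tRNA genes, and the plus strand carries the other 28 genes.

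The tRNA genes differed from each other more than 100-fold in their counts per length, and the reference sequences of those with high and low levels, chosen after their values were seen, are shown with the strand on which they lie. Each runs 5′ to 3′ along the gene's own strand in GRCh38, with the anticodon in capitals. The anticodon was located as the triplet flanked by a stem of 5 positions, of which at least 4 could pair. The first 5 were the only tRNA genes with a mean of at least 100 counts, and the last 4 are 2 minus-strand and 2 plus-strand genes with few counts.
MT-TY (tyrosine, minus, chrM:5826-5891): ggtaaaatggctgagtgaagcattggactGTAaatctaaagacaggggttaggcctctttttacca
MT-TS1 (serine, minus, chrM:7446-7514): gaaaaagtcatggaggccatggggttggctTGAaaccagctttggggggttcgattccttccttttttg
MT-TN (asparagine, minus, chrM:5657-5729): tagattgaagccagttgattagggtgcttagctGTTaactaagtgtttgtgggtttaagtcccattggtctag
MT-TC (cysteine, minus, chrM:5761-5826): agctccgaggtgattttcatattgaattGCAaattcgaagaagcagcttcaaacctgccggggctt
MT-TL1 (leucine, plus, chrM:3230-3304): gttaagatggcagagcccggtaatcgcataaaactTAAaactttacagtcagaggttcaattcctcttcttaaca
MT-TQ (glutamine, minus, chrM:4329-4400): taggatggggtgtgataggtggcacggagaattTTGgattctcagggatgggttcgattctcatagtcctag
MT-TA (alanine, minus, chrM:5587-5655): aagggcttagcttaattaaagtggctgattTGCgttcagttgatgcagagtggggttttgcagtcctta
MT-TR (arginine, plus, chrM:10405-10469): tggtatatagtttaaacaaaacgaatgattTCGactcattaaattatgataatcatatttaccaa
MT-TV (valine, plus, chrM:1602-1670): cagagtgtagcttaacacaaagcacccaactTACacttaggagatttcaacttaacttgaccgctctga

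Genes of chrM can also overlap. The largest overlap is of MT-ATP8 and MT-ATP6, which share 46 bases in different reading frames, and it is shown because reads within it cannot be assigned to either gene alone. The capitals mark the start codon of MT-ATP6 and the stop codon of MT-ATP8.
MT-ATP8 and MT-ATP6 overlap (plus, chrM:8527-8572): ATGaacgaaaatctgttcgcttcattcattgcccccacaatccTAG

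The mRNAs took most of the mitochondrial counts. Replicates 1, 2 and 3 had 57598, 79996 and 72034 counts on the 37 genes, and 94.1%, 96.1% and 96.8% of these lay on the 13 mRNAs. The 37 genes together held 0.554% of the counts in replicate 1 (95% exact binomial interval 0.550% to 0.559%), 0.665% in replicate 2 (0.661% to 0.670%) and 0.832% in replicate 3 (0.826% to 0.838%). These intervals do not overlap, but they cover counting error alone. Reads that PCR copied from the same molecule, if counted separately, would make them too narrow. A share of counts in bulk libraries does not give the amount of mitochondrial RNA per cell, and what set the difference was not tested.

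By complex, the 7 complex I genes (MT-ND1 to MT-ND6 and MT-ND4L) took 38.7 ± 1.53% of the mitochondrial counts (SD, n = 3) and the 3 complex IV genes (MT-CO1, MT-CO2 and MT-CO3) took 40.01 ± 2.104%. These shares differed by less than the larger SD. Complex I genes span 6356 bases and complex IV genes 3010, and per kb of gene complex IV was at 693, 920 and 1127 CPM in replicates 1, 2 and 3 against 352, 391 and 503 for complex I. Complex IV was therefore higher per kb in 3 of 3 replicates. MT-CYB, the only complex III subunit encoded in mitochondria, took 7.92 ± 0.356% of the mitochondrial counts, and the ATP synthase genes MT-ATP6 and MT-ATP8 together took 9.01 ± 0.455%.

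Per kb of gene, the mRNAs of complex IV and of the ATP synthase stood above most of those of complex I. MT-CO2, which encodes a copper-binding subunit of cytochrome c oxidase, was highest, with 6225, 10336 and 9542 counts in replicates 1, 2 and 3, or 876, 1257 and 1612 CPM per kb. MT-CO3, a core subunit of the same enzyme, had 6723, 10107 and 8828 counts, or 825, 1072 and 1301 CPM per kb. MT-CO1, its catalytic subunit, had the most counts of any mitochondrial gene, 8728, 12858 and 11001, but a greater length, and reached 545, 693 and 824 CPM per kb. MT-CO2 was above MT-CO3 in each replicate, although their means of 1248 ± 368 and 1066 ± 238 CPM per kb (SD, n = 3) differed by less than the larger SD.

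The ATP synthase genes were in the middle of the order. MT-ATP6, which encodes the membrane subunit that forms the proton path with the rotor ring, had 3670, 5830 and 5275 counts, or 519, 712 and 895 CPM per kb. MT-ATP8, which encodes a small membrane subunit, had 1227, 1480 and 1484 counts, or 570, 595 and 828 CPM per kb. MT-ATP8 was higher than MT-ATP6 in replicate 1 and lower in replicates 2 and 3. With the shared bases taken off its length and all its counts kept, the mean of MT-ATP8 was 854 in place of 664 CPM per kb. It then moved from rank 6 to rank 3 of the 13 mRNAs. Only the length was changed, and how reads in the overlap were counted is not known.

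Complex I genes held both middle and low ranks. MT-ND3, a short membrane subunit, had 2321, 2761 and 2453 counts, or 646, 664 and 819 CPM per kb, the highest of complex I. MT-ND1 followed with 4305, 6148 and 5725 counts, or 433, 535 and 692 CPM per kb. MT-ND4L, whose last 7 bases overlap the start of MT-ND4, had 1424, 1672 and 1521 counts, or 461, 468 and 592 CPM per kb. These genes of the same complex changed order between replicates, as MT-ND4L was above MT-ND1 in replicate 1 and below it in replicates 2 and 3.

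Lower in the order were MT-CYB, with 4338, 6393 and 5930 counts or 366, 466 and 601 CPM per kb, and MT-ND4, with 5546, 6985 and 6500 counts or 387, 422 and 545 CPM per kb. MT-ND5, the longest mitochondrial gene, had 5587, 7314 and 6806 counts, or 297, 336 and 434 CPM per kb. MT-ND2 had 2758, 3452 and 3082 counts, or 255, 276 and 342 CPM per kb. MT-ND2, MT-ND4 and MT-ND5 encode the large antiporter-like membrane subunits of complex I.

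MT-ND6, the only mRNA of the minus strand, was lowest in the mean, with 1319, 1573 and 1565 counts or 242, 249 and 344 CPM per kb. The highest mRNA, MT-CO2, exceeded the lowest by 4.48-fold in the mean and by 3.62, 5.04 and 4.72-fold in replicates 1, 2 and 3. The lowest was MT-ND6 in the mean and in replicates 1 and 2, and MT-ND2 in replicate 3. Of the 12 pairs of neighbors in the order of means, 2 differed by more than the larger SD, namely MT-CO3 over MT-ND3 and MT-ND4 over MT-ND5. Other neighbors cannot be ranked from these replicates by that measure, and 5 of the 12 pairs had the same order in all replicates.

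**Figure D1:**
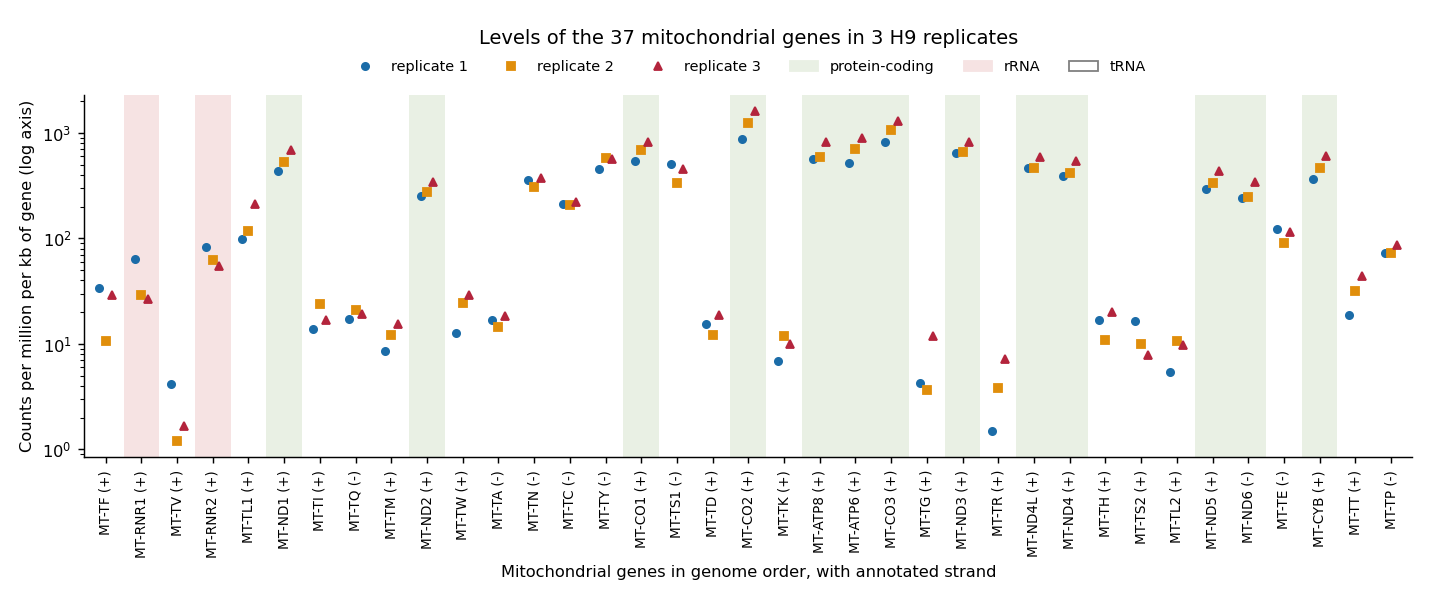
CPM per kb of gene (log axis) of each of the 37 mitochondrial genes, in genome order, with 1 point per replicate and shading by kind of RNA. The mRNAs lie between 242 and 1612 CPM per kb, both rRNAs below 100 and the tRNAs between 1.21 and 573.

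At this length scale all 13 mRNAs were among the 100 protein-coding genes with the highest mean TPM, out of 19629, and 6 were among the first 20. MT-CO2 was at rank 1 and MT-CO3 at rank 5, while MT-ND6 was at rank 80. Ranked by mean count, without regard to length, the highest was MT-CO1 at rank 54.

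Next, the 3 replicates were compared gene by gene, as the ratio of the highest to the lowest CPM of a gene. With a mean of at least 100 counts, 20 members were compared, which are the 13 mRNAs, both rRNAs and 5 tRNAs. The other 17, all tRNAs, had too few counts. A ratio of at least 1.3 was reached by 15 of the 20 members, and by 9.32% of all 10466 genes with such a mean count. With replicate 3 as the highest, it was reached by 12 members and by 7.47% of all genes. Replicate 1 was the highest of 3 members that reached it (MT-RNR1, MT-RNR2 and MT-TS1), and of 0.86% of all genes.

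Among genes with a mean of at least 500 counts, where counting error is smaller, 12 of 14 members and 2.99% of all genes reached the ratio of 1.3. The count of members depended on which libraries were compared. It was 4 of 20 without replicate 1, 14 without replicate 2 and 5 without replicate 3, against 5.47%, 6.58% and 1.48% of all genes.

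All 13 mRNAs moved together between replicates. Each had its highest CPM in replicate 3, and 11 of the 13 reached the ratio of 1.3. Over the mRNAs the median log2 ratio of CPM to the mean of the other replicates was -0.38 for replicate 1, -0.11 for replicate 2 and 0.46 for replicate 3. For all 10466 genes the same medians were -0.01, 0.00 and 0.00. In replicate 3 the mRNAs ranged from 0.32 for MT-ND3 to 0.60 for MT-CO2, and 10 of 13 were above the 95th percentile of all genes, at 0.37. In replicate 1, 10 of 13 were below the 5th percentile, at -0.28.

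MT-CO2 had the largest ratio of the highest to the lowest CPM among mRNAs, 1.84, followed by MT-ATP6 at 1.73 and MT-CYB at 1.64. MT-ND3 and MT-ND4L, at 1.27 and 1.28, were the 2 that did not reach 1.3.

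GC content can affect how well a fragment is amplified, and the mRNAs were therefore also set beside nuclear genes of like GC content. The mRNAs have a GC content of 39.6% to 47.7%. In 3761 nuclear genes with an exon GC content in that range and a mean of at least 100 counts, the median log2 ratio was 0.01, 0.03 and -0.05 in replicates 1, 2 and 3. Of these genes 4.97% reached the ratio of 1.3, and 2.95% did so with replicate 3 as the highest. After subtraction of the median of nuclear genes of like GC content, the median over the 20 members in replicate 3 was 0.46, and it was 0.42 without this step. Any part of GC content in the values beyond this step was not tested.

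**Figure D2:**
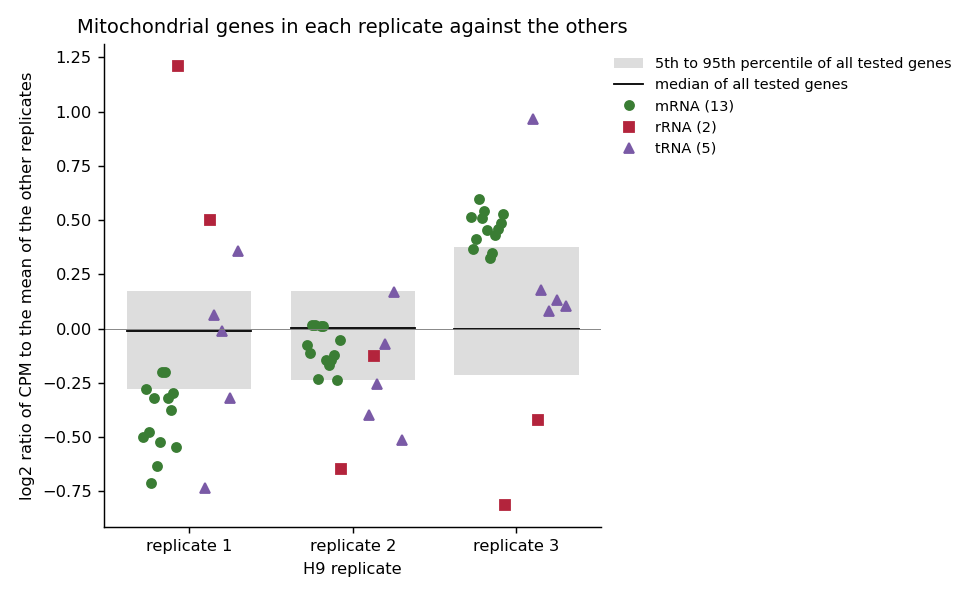
log2 ratio of the CPM of each replicate to the mean of the other replicates, with 1 point for each of the 20 mitochondrial genes with a mean of at least 100 counts. The gray boxes span the 5th to 95th percentile of 10466 genes. The mRNAs lie from 0.32 to 0.60 in replicate 3 and from -0.71 to -0.20 in replicate 1, and both rRNAs lie on the opposite side of 0.

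The rRNAs went the other way. MT-RNR1, the rRNA of the small subunit of the mitochondrial ribosome, had 636, 332 and 219 counts in replicates 1, 2 and 3, or 64.2, 28.9 and 26.5 CPM per kb. MT-RNR2, the rRNA of the large subunit, had 1343, 1179 and 734 counts, or 82.9, 62.9 and 54.4 CPM per kb. Both were highest in replicate 1, where the mRNAs were lowest, with ratios of the highest to the lowest CPM of 2.42 and 1.52. Both rRNAs together held 3.44% of the mitochondrial counts in replicate 1 (95% exact binomial interval 3.29% to 3.59%), 1.89% in replicate 2 (1.80% to 1.99%) and 1.32% in replicate 3 (1.24% to 1.41%).

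In cells, the mitochondrial rRNAs are more abundant than the mRNAs, and depletion kits for human rRNA are made to remove both of these rRNAs. Per kb of gene, the rRNAs were here at 16.6%, 8.91% and 6.20% of the level of the mRNAs in replicates 1, 2 and 3. How much of this level was set by depletion was not tested. MT-RNR2 exceeded MT-RNR1 by 1.29, 2.17 and 2.05-fold per kb, so the ratio of both rRNAs was lower in replicate 1 than in the others.

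Counts on the tRNA genes were few and uneven. The 22 genes, of 59 to 75 bases, had 1448, 1576 and 1369 counts in replicates 1, 2 and 3, and in each replicate 7 genes, not always the same ones, were below 10 counts. The 8 tRNA genes of the minus strand held 86.9%, 84.6% and 80.5% of these counts (95% exact binomial intervals 85.1% to 88.6%, 82.8% to 86.4% and 78.3% to 82.6%). Their median level was 161 CPM per kb, against 13.8 for the 14 genes of the plus strand, and the ratio of the medians was 12.6, 13.01 and 10.5 in the individual replicates. Of the 7 tRNA genes with the most counts, 6 were of the minus strand in each replicate.

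MT-TY, the gene of tyrosine tRNA, had 312, 455 and 322 counts, or 455, 573 and 564 CPM per kb, the highest of the tRNA genes in the mean. MT-TS1, a serine tRNA gene, lies on the strand opposite MT-CO1, and its 3′ end is at the base after the end of MT-CO1. It had 366, 281 and 273 counts, or 511, 339 and 457 CPM per kb. MT-TN, for asparagine, had 271, 270 and 238 counts, or 357, 308 and 377 CPM per kb, and MT-TC, for cysteine, had 145, 163 and 126, or 211, 205 and 221 CPM per kb. These 4 genes together held 75.6%, 74.2% and 70.0% of the tRNA counts. Per kb, MT-TY at 531 ± 65.7 CPM and MT-TN at 347 ± 35.6 CPM (SD, n = 3) were in the range of the mRNAs. MT-TS1, at 435 ± 87.9, was below its neighbor MT-CO1, at 688 ± 140, by more than the larger SD. The tRNA genes are only 59 to 75 bases long. Whether genes this short and the mRNAs were recovered and counted alike was not tested, so these values do not give their relative amounts.

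Another pair of minus-strand genes had intermediate levels. MT-TE, for glutamate, had 89, 75 and 69 counts, and MT-TP, for proline, had 51, 60 and 51. The remaining pair of that strand was low, with 13, 18 and 12 counts on MT-TQ, for glutamine, and 12, 12 and 11 on MT-TA, for alanine. MT-TA lies beside MT-TN, with a single base between them, and MT-TN had a mean of 347 CPM per kb against 16.5 for MT-TA.

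Among the plus-strand tRNA genes MT-TL1, for leucine, stood apart, with 77, 106 and 137 counts or 98.8, 118 and 211 CPM per kb. It lies between MT-RNR2 and MT-ND1. Its CPM was 2.14 times as high in replicate 3 as in replicate 1, the same direction as the mRNAs and the opposite of MT-RNR2. The 13 others had mean levels of 2.36 to 31.4 CPM per kb, all below the 6 highest genes of the minus strand. MT-TT, for threonine, was the next, with 13, 25 and 25 counts, and MT-TF, for phenylalanine, had 25, 9 and 18.

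The remaining plus-strand tRNA genes, MT-TI, MT-TM, MT-TW, MT-TD, MT-TK, MT-TG, MT-TR, MT-TH, MT-TS2, MT-TL2 and MT-TV, had 1 to 20 counts in each replicate. MT-TV, between both rRNA genes, was lowest in the mean, with 3, 1 and 1 counts. The 95% exact Poisson interval of its 3 counts in replicate 1 is 0.619 to 8.77. Differences between replicates for such genes were not detectable at this depth.

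In these counts, reads of a tRNA gene and reads of a transcript from the opposite strand cannot be told apart, since the use of strand in counting is not given in the sources used here. The long transcripts of both strands pass through the tRNA genes, and a count can also come from a fragment of such a precursor. Their part in the tRNA counts was not tested.

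**Figure D3:**
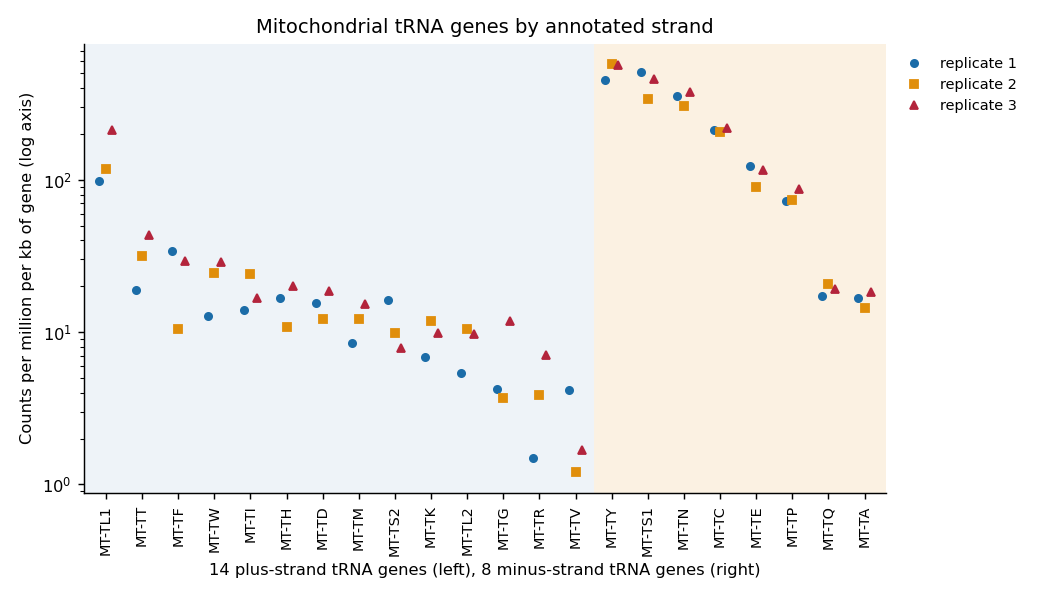
CPM per kb of gene (log axis) of the 22 mitochondrial tRNA genes, with 1 point per replicate, for plus-strand genes on the left and minus-strand genes on the right. Apart from MT-TL1, the plus-strand genes have means of at most 31.4 CPM per kb, and 6 of the 8 minus-strand genes lie above them.

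With the shift in total level removed, the composition of the mRNAs was close to constant. As a share of the counts on the 13 mRNAs, no gene differed by 1.3-fold between replicates, and the ratios of the highest to the lowest share ran from 1.03 for MT-ND1 to 1.22 for MT-ND3. Replicates 2 and 3 were the most alike, with a median difference of 1.03-fold over the 13 genes, against 1.08-fold for replicates 1 and 3 and 1.127-fold for replicates 1 and 2. Replicate 1 had the highest share of 7 mRNAs and the lowest of 5, and it was between the others for 1 of the 13, MT-CO1.

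Replicate 1 was set apart by higher shares of most complex I genes, and by lower shares of MT-CO2 and MT-ATP6. MT-CO2 held 11.5% of the mRNA counts in replicate 1 (95% exact binomial interval 11.2% to 11.8%), 13.4% in replicate 2 (13.2% to 13.7%) and 13.7% in replicate 3 (13.4% to 13.9%). MT-ND3 held 4.29%, 3.59% and 3.52%, and MT-ND4L 2.63%, 2.17% and 2.18%. For these 3 genes replicate 1 was outside the interval of both other replicates. All complex I genes except MT-ND1 had their highest share in replicate 1. So did MT-ATP8, at 2.27% against 1.92% and 2.13% in replicates 2 and 3, unlike MT-ATP6 of the same enzyme. For MT-ATP8 the intervals of replicates 1 (2.14% to 2.39%) and 3 (2.02% to 2.24%) overlap, and so do those of MT-ND6.

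**Figure D4:**
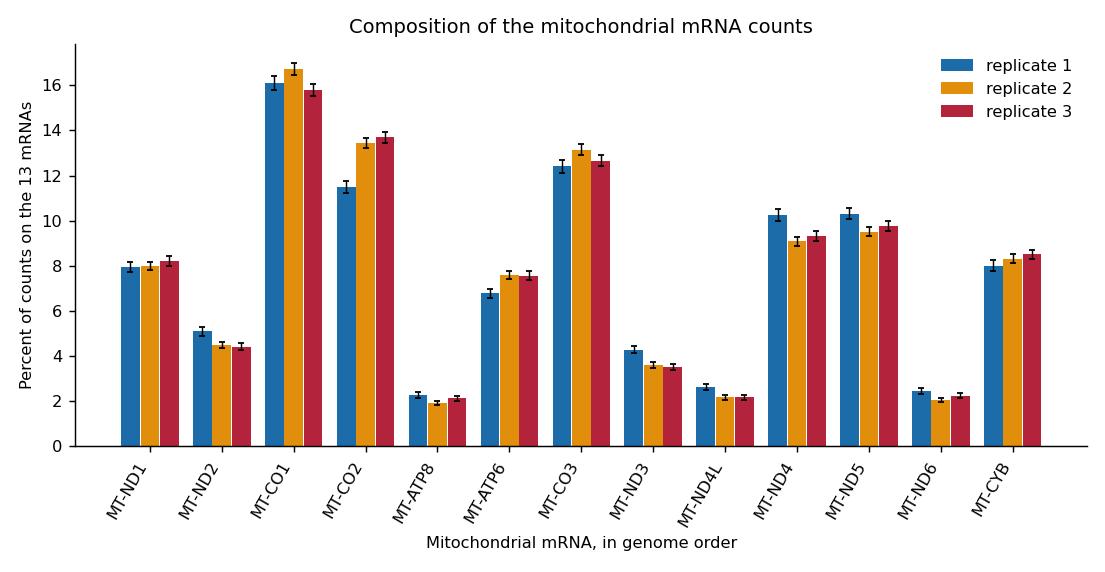
Share of the counts on the 13 mitochondrial mRNAs (percent) taken by each mRNA, as bars for replicates 1, 2 and 3 with 95% exact binomial intervals. The bars of replicates 2 and 3 are close to each other, and those of replicate 1 are lower for MT-CO2 and MT-ATP6 and higher for MT-ND2, MT-ND3, MT-ND4L and MT-ND4.

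Variation between replicates was also measured as the biological coefficient of variation (BCV), the square root of the dispersion that edgeR fits to each gene's counts. The median was 0.0974 over the 26 members kept by its filter on low counts and 0.0676 over all 15997 genes kept. The highest member was MT-RNR1, at 0.224. Without replicate 3 the median of the members fell to 0.0340, against 0.0360 for all genes, and without replicate 1 it was 0.0601, against 0.0825. Without replicate 2 it was 0.102, against 0.0930. With no filter on low counts, which kept all 37 members, the median of the members was 0.0941 and that of all genes 0.104, so the order of members and all genes depended on the filter as well as on the libraries.

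The mitochondrial subunits were next set beside the nuclear genes for the same complexes. In TPM averaged over the replicates, all 13 mRNAs were above every nuclear subunit gene of their own complex. The 7 mitochondrial genes of complex I had a median of 1782 TPM and the 37 nuclear genes 43.0. NDUFS5 was highest at 998 ± 83.5 TPM (SD, n = 3) and NDUFA13 lowest at 3.72 ± 0.912. The level of NDUFA13 rests on only 20, 30 and 28 counts in replicates 1, 2 and 3. For complex IV the medians were 4209 and 186 TPM over 3 and 11 genes, with nuclear genes from COX7B at 89.3 to COX8A at 421. MT-CYB had 1885 ± 442 TPM, and the 9 nuclear genes of complex III had a median of 133, from UQCR11 at 29.4 to UQCRH at 533. For the ATP synthase the medians were 2710 and 123 TPM over 2 and 18 genes, from ATP5PO at 30.1 to ATP5F1B, the catalytic beta subunit, at 1432 ± 47.5.

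The length used for nuclear genes is the union of all their annotated exons. It can exceed the length of the transcript that is made, which lowers their TPM, while mitochondrial genes have 1 exon. The ratio of the medians was 41.3 ± 5.54 for complex I and 22.1 ± 4.44 for complex IV (SD, n = 3), 22.2 ± 5.68 for the ATP synthase and 14.3 ± 3.83 for complex III.

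The difference of the mitochondrial mRNAs between replicates was not seen in the median of the nuclear subunit genes. Of the 71 with a mean of at least 100 counts, 5 (NDUFB7, NDUFS7, NDUFS8, COX6A1 and ATP5F1D) reached a ratio of 1.3, a share near that of all genes. Their ratios were 1.53, 1.53, 1.33, 1.41 and 1.36, each with replicate 3 the highest, and 4 of the 5 have an exon GC content of 59.3% to 65.0%, with COX6A1 at 45.4%. The median log2 ratio over the 71 genes was -0.01, 0.03 and -0.04 in replicates 1, 2 and 3, against -0.38, -0.11 and 0.46 for the 13 mitochondrial mRNAs.

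**Figure D5:**
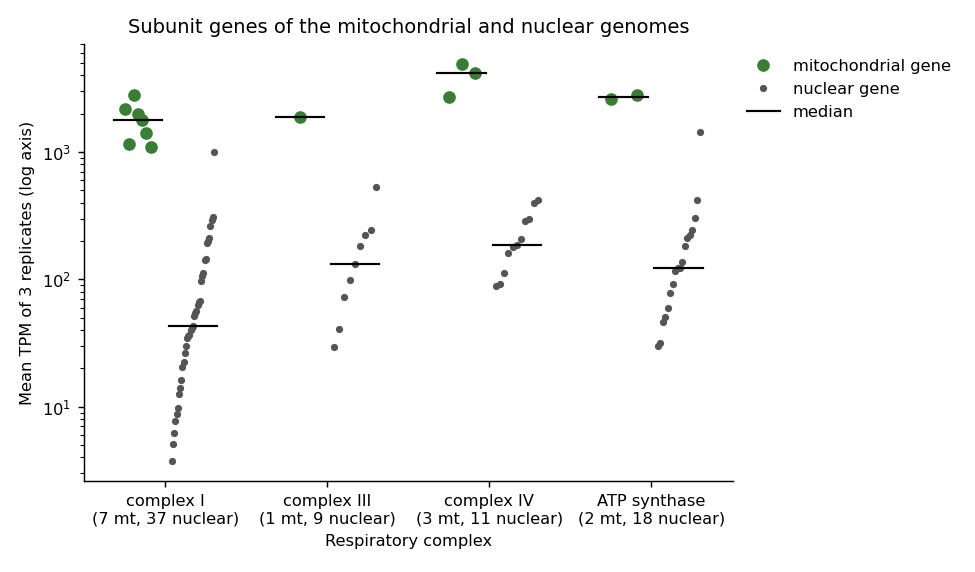
Mean TPM of the 3 replicates (log axis) for mitochondrial (green) and nuclear (gray) subunit genes of each complex, with a line at the median. All mitochondrial genes lie above the nuclear genes of their own complex, with medians of 1782 against 43.0 TPM for complex I.

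Copies of mitochondrial DNA in the nuclear chromosomes can take or share reads of the mitochondrial genes. Of 16520 windows of 50 bases along the mitochondrial genome, 23.8% occur without a mismatch in a nuclear chromosome of GRCh38, and 2823 of these windows occur on chromosome 1. The share of windows with such a copy was 50.6% for MT-CO1, 46.7% for MT-ATP6, 43.6% for MT-ND2 and 43.7% for MT-RNR1. It was 0% for MT-ND3 and MT-ND4L, 1.65% for MT-CYB and 3.54% for MT-ND4. How the counting treated reads with several alignments is not given in the sources used here, and its part in these levels was not tested.

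With the number of windows that have no nuclear copy in place of gene length, MT-CO2 and MT-CO3 were still the first 2 of the 13 mRNAs, at 1893 ± 558 and 1645 ± 367 CPM per kb. MT-CO1 moved from rank 5 to rank 3, at 1438 ± 293, and MT-ND3 from rank 3 to rank 6, at 827 ± 111. MT-ND6 and MT-ND5 were then last, each at 384. Only the length was changed and all counts were kept, and how reads in copied windows were counted is not known.

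Among the tRNA genes, 7 of the 22 have all their windows in a nuclear chromosome. Of these, MT-TN, MT-TS1, MT-TE, MT-TQ and MT-TA lie on the minus strand, and MT-TW and MT-TK on the plus strand. They include genes with high levels (MT-TN and MT-TS1), an intermediate one (MT-TE) and low ones (MT-TQ, MT-TA, MT-TW and MT-TK). MT-TY had 11.8% of its windows in a nuclear chromosome and MT-TL1 none. Taken by strand, the share of windows with a nuclear copy was larger for minus-strand than for plus-strand tRNA genes. Whether nuclear copies had a part in the difference in tRNA counts between strands was not tested.

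Annotated nuclear pseudogenes of mitochondrial genes had few counts. Of 399 in the tables, 313 had none in any replicate, and all together held 1503, 1895 and 1694 counts, which is 2.61%, 2.37% and 2.35% of the mitochondrial counts. At least 100 counts over the replicates were found on 3 of them. MTND4P12 (chromosome 5, 134926660 to 134928036) had 598, 826 and 708 counts, MTATP6P1 (chromosome 1, 633696 to 634376) had 464, 465 and 442, and MTND2P28 (chromosome 1, 629640 to 630683) had 345, 487 and 452. Per kb they were at 50.4, 65.8 and 40.2 CPM in the mean, against 451 for MT-ND4, 709 for MT-ATP6 and 291 for MT-ND2. All 3 had their highest CPM in replicate 3, as did the mitochondrial genes they resemble, and how reads were divided between them is not given in the sources used here.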

How the data were processed

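RNA of 3 libraries of untreated H9 cells was measured after rRNA depletion, and the deposited files hold raw counts of reads per Ensembl gene that the authors made. The submitters' processing notes name Trim Galore (0.4.4) for trimming and TopHat2 (2.1.1) for alignment, with GRCh38 as the build. They also name Cufflinks (2.2.1), with which the study computed transcript abundances, a unit other than the whole-number counts used here. Not given in the sources used here: the tool that made these counts, its annotation, its use of strand and its treatment of reads with several alignments.

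Identifiers were matched to GENCODE release 44, and 56948 of 58051 genes matched. CPM is the count over the library total on genes (8655155 to 12024802), and TPM uses the union of annotated exons. Counts of members, of gene lists and of pseudogenes were compared between replicates by the ratio of the highest to the lowest CPM (at least 1.3, for a mean of at least 100 counts), with no hypothesis test. Dispersions came from edgeR (4.0.16, R 4.3.3) with filterByExpr and an intercept-only design, and DESeq2 (1.42.0) was an alternative. Scripts ran in Python 3.11.15, and the dispersion step was tested on simulated data with known dispersions. Sequences and 50-base windows were read from GRCh38 by coordinate, and a window counted as a nuclear copy if it occurred exactly on either strand of a nuclear chromosome. Intervals are exact binomial or Poisson at 95%.

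All chrM genes were named, and of each other list the highest, the lowest and any gene that reached the ratio of 1.3, besides pseudogenes with at least 100 counts over the 3 replicates. The tRNA genes whose sequences are shown were picked after their values were seen. None of 13 nuclear MTRNR2-like genes matched by identifier, and they were not analysed here. The members and the lists were chosen with earlier results of these data known. Alternatives were other normalizations, filters, lengths, a correction for GC content and the omission of each replicate.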

Additional observations from a re-analysis of the deposited data

How the results depend on the processing

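The share of counts on mitochondrial genes, 0.684%, was 0.683% to 0.718% under other denominators or with nuclear copies added, and 0.610% to 0.749% without 1 replicate. The 15 of 20 genes past 1.3-fold (9.32% of all genes) became 29 of 37 with no filter on counts, where 12312 of all 24631 genes passed, and 4 to 14 of 20 without 1 replicate (1.48% to 6.58% of all genes). At a ratio of 1.5 they were 10 (2.19%), and with DESeq2 size factors 14 (8.79%). The median log2 ratio over the 20 genes kept its sign for replicate 1 (-0.50 to -0.12) and replicate 3 (0.33 to 0.50) without 1 replicate. That of replicate 2, -0.12, ran from -0.33 to 0.12 and so turned its sign against replicate 1 alone. The highest over the lowest mRNA per kb ran from 4.24 to 4.83 without 1 replicate. The median BCV of 0.0974 was 0.136 with DESeq2 gene-wise dispersions, over 37 rather than 26 genes, and 0.0340 to 0.102 without 1 replicate. With windows absent from nuclear chromosomes in place of gene length and all counts kept, 10 of 13 mRNA levels moved by more than their SD. These include MT-ND3 and MT-ND4L, which have no copied window, because a gene has fewer windows than bases. With shared bases taken off the length and all counts kept, 1 of 13 (MT-ATP8) moved by more than its SD. No paired analysis was possible because the libraries form a single group. Depth limits most tRNA genes, of which 17 had a mean below 100 counts. No outlier test was made, since a group of 3 is too small for it.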

Other observations

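Transcription, replication and RNA processing of mitochondrial DNA depend on proteins made from nuclear genes, and 40 of these were measured as a list. The highest of them, at 160 TPM, was below the lowest mitochondrial mRNA, MT-ND6, at 1099 TPM. Of 9 genes of transcription, TFAM, which packages the DNA and binds its promoters, was highest at 120.0 ± 5.77 TPM (SD, n = 3). MTERF2 was lowest at 6.41 ± 1.09. Of 11 genes of replication, the single-strand binding protein gene SSBP1 was highest at 104 ± 2.77 TPM and the thymidine kinase gene TK2 lowest at 1.42 ± 0.296. MTERF2 had only 51, 69 and 61 counts in replicates 1, 2 and 3, and TK2 29, 49 and 37. Of 20 genes of RNA processing and turnover, SLIRP, whose product binds mitochondrial mRNAs together with LRPPRC, was highest at 160 ± 6.14 TPM and PTCD2 lowest at 5.16 ± 0.509.

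The difference of the mitochondrial mRNAs between replicates was not seen in the median of these genes. With a mean of at least 100 counts, 38 were compared, and 2 reached a ratio of 1.3 between the highest and the lowest CPM, both highest in replicate 3. Of all genes 9.32% reached it, and 7.47% with replicate 3 as the highest. POLRMT, the RNA polymerase of mitochondria, had 623, 633 and 603 counts in replicates 1, 2 and 3 and a ratio of 1.32, and FASTK had 193, 254 and 251 counts and a ratio of 1.56. The exon GC content of both is high, at 66.4% and 62.7%. The median log2 ratio of a replicate to the others over the 38 genes was -0.01, 0.03 and -0.04 in replicates 1, 2 and 3.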
